A study of Homo sapiens with 12 samples.

Results

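The genes described here are 41 genes of the G2 phase and of mitosis, taken from a list of cyclins, mitotic kinases, spindle checkpoint and kinetochore proteins, spindle motors, cytokinesis factors and chromosome proteins. A gene entered if a probe set on the array had its symbol as the only one, and where several did, it was represented by the one whose mean over the 12 arrays was highest. All 41 listed genes were found among the 11963 genes represented in this way, and all 41 were among the 8992 genes that had a log2 value above 4.52, called the dim limit below, in at least 2 arrays. The arrays measured total RNA of 3 established head and neck cancer lines named Detroit, Fadu and OECM1. Fadu cells come from a squamous tumour of the hypopharynx, and OECM1 cells from one of the mouth. Each line was measured as parent cells and as an invasion subline, a population collected for its high invasiveness by a Matrigel method, Matrigel being a basement membrane extract. That gives 6 groups of 2 arrays each. No treatment or genetic change is named for any group, and neither the number of selection rounds, nor whether a subline is a clone, nor which Detroit line was used is given in the sources used here. Values are log2 RMA values, and the number of arrays limits their precision.

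Of 12 listed markers of squamous or other epithelium, 9 were measured. Of these, 7 (KRT5, SFN, EPCAM, CDH1, DSP, KRT8 and KRT18) lay above the dim limit in all 12 arrays, and the list averaged 8.37 to 9.99. The other listed markers, KRT14, KRT6A, KRT17, TP63 and DSG3, were either not measured or below the limit in some array. The values thus show epithelial cells and do not by themselves show a squamous type. Among 8 fibroblast markers COL1A1 did so, with list means of 4.0 to 4.84, among 6 leukocyte markers CD3D did so, with means of 4.35 to 4.77, and of 5 endothelial markers 4 lay below the limit in every array. The arrays labelled Detroit invasion subline resembled the Fadu parent (r = 0.961 over the genes tested, which are not independent) more than the Detroit parent (r = 0.881). Whether their line name holds was not tested, and every Detroit value below compares the arrays as labelled.

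Entry into mitosis is driven by the kinase CDK1 bound to B-type cyclins, which the phosphatase CDC25C switches on. Aurora and polo-like kinases then build the spindle, kinetochores attach chromosomes to it, and the spindle checkpoint holds back the anaphase-promoting complex until attachment is complete. That complex, with its activator CDC20, marks cyclin B and securin for destruction, which frees separase to part the chromatids and lets the cell divide. Most of these genes are transcribed late in the cell cycle, so in bulk RNA their level is widely read as a measure of how many cells are cycling. Fewer dividing cells and less of these RNAs per cell cannot be told apart in such samples.

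A single array stood apart in these genes. In the array labelled Detroit invasion subline replicate 2, 41 of the 41 genes had their lowest value of the 12 arrays, against 13.01% of all genes tested. Averaged over the 41 genes, that array lay 2.88 below the mean of the 12 arrays on the log2 scale, a difference of -2.88. Its duplicate, Detroit invasion subline replicate 1, lay at 0.09, and the other 10 arrays lay between -0.30 (Detroit parent replicate 1) and 0.70 (Fadu invasion subline replicate 1). In the low array 16 of the 41 genes were below the dim limit, where RMA compresses differences, against 10.6% of all genes tested there and at most 1 of the 41 in any other array. The mean over all genes tested differed by only -0.03 from the 12-array mean in that array. For the 41 genes, the median log2 fold changes that use it are given with and without it below.

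**Figure D1:**
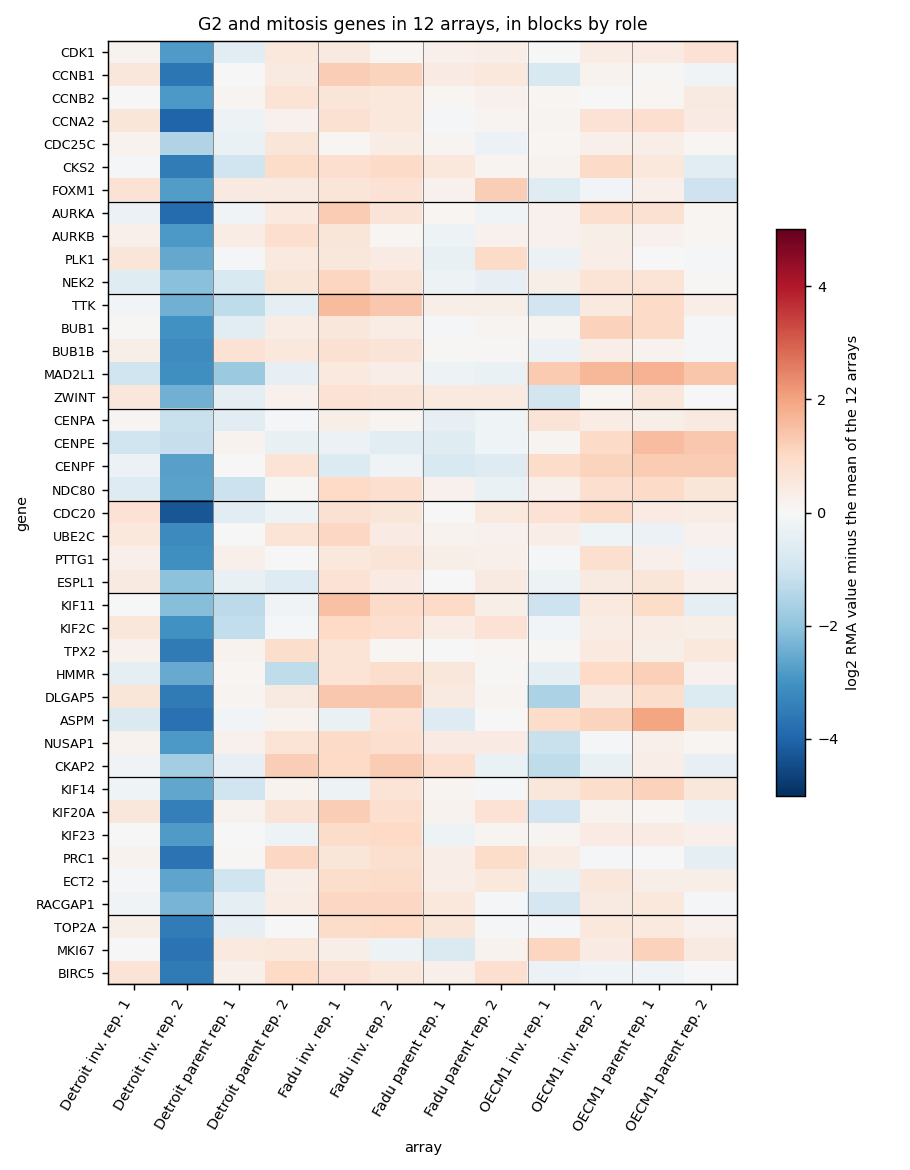
Log2 RMA value of each of the 41 genes (rows, in blocks by role) in each of the 12 arrays (columns), minus the gene's mean over the 12 arrays. Blue is lower and red is higher; the column of Detroit invasion subline replicate 2 is blue throughout, with a mean of -2.88, while no other array has a mean below -0.30.

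Promoters of late cell cycle genes are known for a pair of short elements, the CHR, whose core is written TTTGAA and which the MuvB complexes bind, and CCAAT boxes, which NF-Y binds. The promoters of the 41 genes in RefSeq (GRCh38.p14, 250 bases before and 50 bases after the annotated start) were searched on both strands. The motifs were TTTGAA, which reads TTCAAA on the opposite strand, and CCAAT, which reads ATTGG there. An entry was found for 34 of the 41 genes. TTTGAA was found in 24 of these (70.6%), against 13.8% of 7315 tested genes with an entry, and CCAAT in 29 (85.3%), against 43.7%. Both stood in 1 window in 22 genes (64.7%), against 5.77%, and at least 2 CCAAT in 1 window in 20 genes (58.8%), against 16.1%. A TTTGAA that began between positions -35 and -15 was found in 12 genes (35.3%), against 1.05% of the tested genes. The motifs overlap in 1 window, that of MKI67. AURKA, BIRC5, FOXM1, RACGAP1, TPX2, TTK and UBE2C had no entry. CENPE, CKAP2 and KIF2C held neither motif. A match is a description of letters and not a shown binding site. Whether the motifs bear on the low values of Detroit-labelled replicate 2 was not tested.

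The last 110 bases before the start are given for 9 genes, chosen to show the spacing of the motifs, which are in capitals. In CCNB2, CKS2, PLK1 and MKI67 a TTTGAA begins at position -29, in KIF11 at -28, in ESPL1 at -31 and in PRC1 at -20. CDC20 has its TTTGAA further off, at -65, between CCAAT boxes at -100 and -55. CENPE is shown as a gene with neither motif. All run 5′ to 3′ on the strand of the gene.
CCNB2: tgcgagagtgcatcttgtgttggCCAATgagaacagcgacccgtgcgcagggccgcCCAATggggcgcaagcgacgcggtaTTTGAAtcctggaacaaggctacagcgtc
CKS2: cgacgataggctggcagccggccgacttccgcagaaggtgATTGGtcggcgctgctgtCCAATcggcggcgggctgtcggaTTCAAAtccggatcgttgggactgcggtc
PLK1: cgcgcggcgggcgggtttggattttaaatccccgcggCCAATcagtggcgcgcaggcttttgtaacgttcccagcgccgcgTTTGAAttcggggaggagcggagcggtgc
KIF11: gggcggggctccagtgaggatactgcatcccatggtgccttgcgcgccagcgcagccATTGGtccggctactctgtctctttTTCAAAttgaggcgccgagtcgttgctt
ESPL1: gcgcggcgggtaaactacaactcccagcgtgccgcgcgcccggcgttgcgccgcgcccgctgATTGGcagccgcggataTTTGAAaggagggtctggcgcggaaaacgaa
MKI67: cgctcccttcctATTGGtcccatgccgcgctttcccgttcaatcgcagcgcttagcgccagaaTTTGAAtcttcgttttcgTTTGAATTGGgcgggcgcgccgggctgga
CDC20: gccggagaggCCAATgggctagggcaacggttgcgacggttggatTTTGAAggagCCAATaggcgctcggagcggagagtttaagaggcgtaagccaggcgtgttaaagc
PRC1: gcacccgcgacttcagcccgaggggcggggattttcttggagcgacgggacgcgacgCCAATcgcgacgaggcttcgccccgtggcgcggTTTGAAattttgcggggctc
CENPE: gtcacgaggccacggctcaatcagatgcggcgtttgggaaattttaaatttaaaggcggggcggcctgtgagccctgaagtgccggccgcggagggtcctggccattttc
On the plus strand these stretches are CCNB2 at chr15:59105036-59105145, CKS2 at chr9:89311085-89311194, PLK1 at chr16:23678779-23678888, KIF11 at chr10:92593020-92593129, ESPL1 at chr12:53268189-53268298 and CDC20 at chr1:43358871-43358980. On the minus strand they are MKI67 at chr10:128126424-128126533, PRC1 at chr15:90994536-90994645 and CENPE at chr4:103198344-103198453.

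The mitotic entry group holds CDK1, the cyclins CCNA2, CCNB1 and CCNB2, the phosphatase CDC25C, the CDK-binding subunit CKS2 and the transcription factor FOXM1, which drives many of the other genes. In the order replicate 1 and replicate 2, CCNA2 read 8.30 and 3.68 in the Detroit-labelled subline and 7.41 and 7.89 in the Detroit parent. Its values were 8.45 and 8.19 in the Fadu subline and 7.57 and 7.84 in its parent, and 7.84 and 8.42 in the OECM1 subline and 8.51 and 8.11 in its parent. The single value of 3.68 lay below the dim limit and 3.74 under the next lowest array, while the other 11 arrays spanned 1.10. CDC25C, the phosphatase, read 5.08 and 3.39 in the Detroit-labelled subline and 4.58 and 5.51 in the Detroit parent, then 5.02 and 5.27 in the Fadu subline and 5.03 and 4.61 in its parent, and 4.99 and 5.15 in the OECM1 subline and 5.22 and 5.02 in its parent. Here too only Detroit-labelled replicate 2 stood apart. The 7 genes of the group were higher in replicate 1 than in replicate 2 by 1.69 (CDC25C) to 4.62 (CCNA2), with a median of 3.41.

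Among the mitotic kinases, AURKA, which matures centrosomes, read 8.73 and 5.20 in the Detroit-labelled subline and 8.86 and 9.52 in the Detroit parent, then 10.31 and 9.68 in the Fadu subline and 9.12 and 8.87 in its parent, and 9.26 and 9.89 in the OECM1 subline and 9.81 and 9.13 in its parent. Both Detroit-labelled arrays were below both Detroit parent arrays, and both Fadu subline arrays were above both of their parent. NEK2, a kinase of centrosome separation, read 5.22 and 3.73 in the Detroit-labelled subline and 5.05 and 6.42 in the Detroit parent, then 6.89 and 6.45 in the Fadu subline and 5.57 and 5.42 in its parent, and 6.10 and 6.51 in the OECM1 subline and 6.50 and 5.88 in its parent. Its Fadu arrays did not overlap, with the subline higher. For AURKA, AURKB, PLK1 and NEK2 the difference between the Detroit-labelled duplicates ran from 1.5 (NEK2) to 3.53 (AURKA).

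The spindle checkpoint genes are TTK, BUB1, BUB1B, MAD2L1 and ZWINT, whose products delay anaphase or recruit the checkpoint to kinetochores. BUB1B, which encodes the BubR1 inhibitor of the anaphase-promoting complex, read 7.79 and 4.34 in the Detroit-labelled subline and 8.22 and 8.05 in the Detroit parent, then 8.27 and 8.15 in the Fadu subline and 7.55 and 7.56 in its parent, and 7.20 and 7.83 in the OECM1 subline and 7.68 and 7.42 in its parent. Apart from the one low value, its arrays stayed within 1.06. MAD2L1, the MAD2 checkpoint protein, read 6.57 and 4.50 in the Detroit-labelled subline and 5.70 and 7.16 in the Detroit parent, then 8.06 and 7.91 in the Fadu subline and 7.29 and 7.25 in its parent, and 8.87 and 9.21 in the OECM1 subline and 9.30 and 8.95 in its parent. All 4 OECM1 arrays were above all 8 others, so this gene differed with the line as well as in the low array. TTK, the MPS1 kinase that starts checkpoint signalling, read 6.16 and 3.87 in the Detroit-labelled subline and 5.02 and 5.78 in the Detroit parent, then 7.86 and 7.61 in the Fadu subline and 6.58 and 6.56 in its parent, and 5.32 and 6.79 in the OECM1 subline and 7.23 and 6.60 in its parent. The Fadu subline arrays were its highest.

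The centromere and kinetochore group had the smallest median difference between the Detroit-labelled duplicates, 1.64 over CENPA, CENPE, CENPF and NDC80. CENPE, a kinesin that carries chromosomes to the metaphase plate, read 3.88 and 3.75 in the Detroit-labelled subline and 5.07 and 4.50 in the Detroit parent, then 4.60 and 4.38 in the Fadu subline and 4.30 and 4.67 in its parent, and 5.04 and 5.84 in the OECM1 subline and 6.44 and 6.23 in its parent. Both Detroit-labelled arrays lay below the dim limit, so a difference between them could hardly be measured, and 1 array each of the Detroit parent, the Fadu subline and the Fadu parent lay below it as well. CENPF, a large kinetochore protein, read 7.49 and 5.06 in the Detroit-labelled subline and 7.74 and 8.45 in the Detroit parent, then 7.10 and 7.58 in the Fadu subline and 7.01 and 7.14 in its parent, and 8.68 and 8.87 in the OECM1 subline and 9.06 and 9.05 in its parent. As with MAD2L1, all 4 OECM1 arrays were above the other 8. CENPA, the histone H3 variant of centromeres, had a duplicate difference of 1.25 and NDC80, which binds spindle microtubules, one of 2.03.

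Among the anaphase genes, CDC20 had the largest difference between the Detroit-labelled duplicates of the 41 genes, 4.99 on the log2 scale or 31.8-fold. It read 10.21 and 5.22 in the Detroit-labelled subline and 8.97 and 9.23 in the Detroit parent, then 10.27 and 10.10 in the Fadu subline and 9.47 and 9.98 in its parent, and 10.23 and 10.44 in the OECM1 subline and 9.91 and 9.87 in its parent. Replicate 1 of the Detroit-labelled subline was above both Detroit parent arrays and replicate 2 far below them. ESPL1, the protease separase, read 7.83 and 5.34 in the Detroit-labelled subline and 7.04 and 6.76 in the Detroit parent, then 8.11 and 7.80 in the Fadu subline and 7.41 and 7.84 in its parent, and 7.14 and 7.83 in the OECM1 subline and 8.01 and 7.64 in its parent. The ubiquitin-conjugating enzyme UBE2C and the securin gene PTTG1 differed by 3.73 and 3.31 between the Detroit-labelled duplicates.

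The spindle group holds the motors KIF11 and KIF2C and the microtubule proteins TPX2, HMMR, DLGAP5, ASPM, NUSAP1 and CKAP2. DLGAP5, which stabilises spindle fibres, read 8.31 and 4.15 in the Detroit-labelled subline and 7.83 and 8.17 in the Detroit parent, then 9.07 and 9.06 in the Fadu subline and 8.13 and 7.84 in its parent, and 6.10 and 8.17 in the OECM1 subline and 8.57 and 7.02 in its parent. It also had the largest duplicate difference in both OECM1 groups, with its lower value in subline replicate 1 and parent replicate 2. ASPM, a protein of spindle poles, read 6.40 and 3.42 in the Detroit-labelled subline and 7.0 and 7.31 in the Detroit parent, then 6.81 and 7.88 in the Fadu subline and 6.51 and 7.16 in its parent, and 8.08 and 8.26 in the OECM1 subline and 9.13 and 7.75 in its parent. CKAP2, a microtubule-associated protein, read 7.48 and 5.94 in the Detroit-labelled subline and 7.26 and 8.91 in the Detroit parent, then 8.67 and 8.94 in the Fadu subline and 8.49 and 7.35 in its parent, and 6.40 and 7.30 in the OECM1 subline and 8.02 and 7.26 in its parent. Its duplicates differed by over 1 in the parents of Detroit and Fadu too. The low array was 0.46 under the next lowest, OECM1 subline replicate 1.

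The central spindle and cytokinesis genes are KIF14, KIF20A, KIF23, PRC1, ECT2 and RACGAP1. KIF20A, a motor of the midzone, read 7.53 and 3.55 in the Detroit-labelled subline and 7.13 and 7.63 in the Detroit parent, then 8.20 and 7.81 in the Fadu subline and 7.13 and 7.68 in its parent, and 6.02 and 7.16 in the OECM1 subline and 7.07 and 6.73 in its parent. PRC1, which bundles midzone microtubules, read 8.15 and 4.27 in the Detroit-labelled subline and 8.03 and 9.02 in the Detroit parent, then 8.57 and 8.80 in the Fadu subline and 8.31 and 8.91 in its parent, and 8.36 and 7.93 in the OECM1 subline and 7.95 and 7.49 in its parent. RACGAP1, part of the centralspindlin complex, read 7.30 and 5.18 in the Detroit-labelled subline and 6.98 and 7.88 in the Detroit parent, then 8.53 and 8.51 in the Fadu subline and 8.02 and 7.44 in its parent, and 6.65 and 7.93 in the OECM1 subline and 8.01 and 7.43 in its parent. All 3 were lowest in Detroit-labelled replicate 2, and the 6 genes of the group differed by 2.12 (RACGAP1) to 3.98 (KIF20A) between those duplicates.

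The chromosome proteins TOP2A, MKI67 and BIRC5 had the largest median difference between the Detroit-labelled duplicates of the 8 groups, 3.82. MKI67, the Ki-67 antigen used in pathology to count cycling cells, read 8.48 and 4.77 in the Detroit-labelled subline and 8.93 and 8.99 in the Detroit parent, then 8.75 and 8.21 in the Fadu subline and 7.74 and 8.62 in its parent, and 9.53 and 8.85 in the OECM1 subline and 9.60 and 8.90 in its parent. BIRC5, the survivin subunit of the chromosomal passenger complex, read 9.21 and 5.0 in the Detroit-labelled subline and 8.79 and 9.53 in the Detroit parent, then 9.26 and 9.05 in the Fadu subline and 8.78 and 9.36 in its parent, and 8.24 and 8.32 in the OECM1 subline and 8.38 and 8.56 in its parent. For both genes the low array was the only one outside a span of 1.85 (MKI67) or 1.29 (BIRC5).

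Over all 41 genes, replicate 1 of the Detroit-labelled subline was higher than replicate 2 by a median of 3.05 (8.28-fold), from 0.13 (CENPE) to 4.99 (CDC20). The difference was over 1 in 40 genes, over 2 in 36 and over 3 in 22, against 19.3%, 4.05% and 1.08% of all genes tested in either direction. Replicate 1 was higher for 41 of 41 genes and for 55.5% of all genes tested. Seen against the other 10 arrays and its duplicate, replicate 2 lay under the lowest of them by a median of 2.20 and by over 1 in 37 genes.

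The duplicates of the other groups differed less in these genes, and in both directions. In the Detroit parent, replicate 1 was lower in 35 of the 41 genes, with a median difference of -0.65, and in the OECM1 subline it was lower in 36, with a median of -0.56. In the OECM1 parent replicate 1 was higher in 35 genes (median 0.36). The Fadu subline had a median of 0.14 and the Fadu parent one of -0.10. A difference over 1 was seen in 11 genes of the Detroit parent (8.97% of all genes tested), 9 of the OECM1 subline (5.34%), 5 of the OECM1 parent (15.02%), 3 of the Fadu parent (3.98%) and 1 of the Fadu subline (2.62%). The 3 prime minus 5 prime log2 difference of the ACTB control probe sets, which rises with degraded RNA or short labelling, was 0.80 in Detroit-labelled replicate 2 and -0.28 in replicate 1. OECM1 parent replicate 1 had the higher value of 0.87, and there the 41 genes averaged 0.58 above the 12-array mean. The part of RNA quality in the low values of Detroit-labelled replicate 2 was not tested beyond a fit with this difference as a covariate. In that fit the Detroit median given below was -1.14, and 0 of the 41 genes passed, against 455 of all genes tested.

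**Figure D2:**
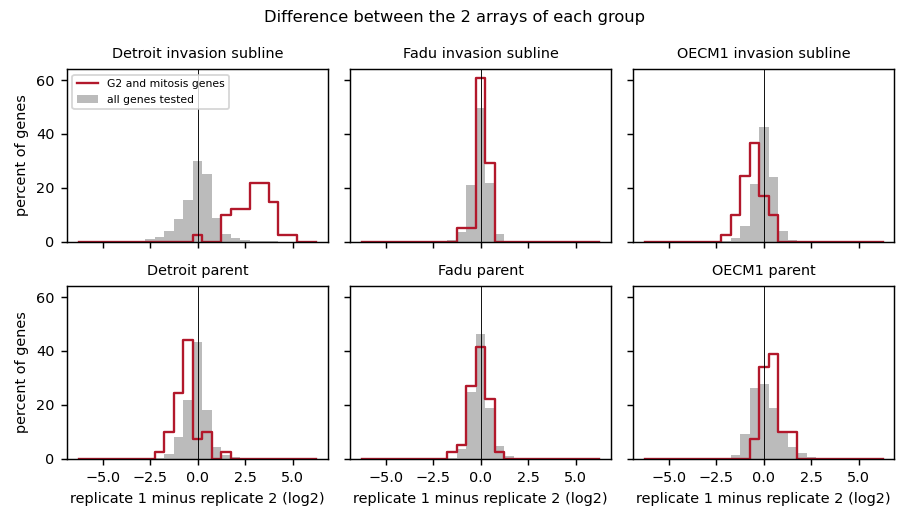
Percent of genes (y axis) by the log2 difference between replicate 1 and replicate 2 (x axis) in each of the 6 groups, for the 41 genes (red line) and all 8992 genes tested (grey). In the Detroit invasion subline the 41 genes lie around a median of 3.05, far to the right of the grey bars, while their median in each other group is between -0.65 and 0.36.

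In the Detroit comparison, 41 of 41 genes were lower on average in the arrays labelled invasion subline than in the Detroit parent, and 0 passed the test. The median log2 fold change was -1.39 (2.62-fold lower). The largest sizes were those of MKI67 (-2.33, SE 0.896, adjusted p = 0.214, limma), PRC1 (-2.31, SE 0.923, adjusted p = 0.233) and ASPM (-2.25, SE 0.802, adjusted p = 0.176), and the smallest was that of CENPA (-0.16, SE 0.397). No gene had an adjusted p under that of CENPE (-0.97, SE 0.306, adjusted p = 0.124). Of all genes tested, 295 (3.28%) passed at an adjusted p under 0.05 with the same limma fit. At an unadjusted p under 0.05, 12 of the 41 genes passed, against 16.1% of all genes. Both subline arrays lay below both parent arrays in 9 genes, namely CCNB2, AURKA, AURKB, BUB1B, CENPE, CENPF, ASPM, NUSAP1 and MKI67 (18.8% of all genes), and above both in 0 (19.9%).

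That comparison turned on which of the duplicates was kept. Without Detroit-labelled replicate 2 the median log2 fold change was 0.14, with 25 genes positive and 16 negative. Without replicate 1 the median was -3.03 and 35 of the 41 genes passed as lower, the other 6 being TTK, CENPA, CENPE, KIF11, HMMR and CKAP2. In that fit 918 genes (10.2% of those tested) passed, and the lone array was assumed to vary like the other groups. Set against the Fadu parent, which the Detroit-labelled arrays resembled more, the 41 genes had a median of -1.62 and 0 passed, as for all genes tested (0%), while 13 had an unadjusted p under 0.05 (3.90% of all genes). There too the median was 0.011 without replicate 2, and 34 genes passed as lower without replicate 1, where 246 genes (2.74% of those tested) passed.

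In the Fadu comparison, which asks what differs in cells selected for invasion, 39 of the 41 genes were higher on average in the subline, by a median log2 fold change of 0.49 (1.41-fold), and 0 passed. The 2 negative genes were FOXM1 (-0.05) and CDK1 (-0.02). The largest differences were those of NEK2 (1.18, SE 0.522), TTK (1.17, SE 0.665) and DLGAP5 (1.08, SE 1.09), each at an adjusted p = 1.00 (limma). NEK2 alone had an unadjusted p under 0.05 (2.02% of all genes), and 2 genes of the whole array passed (0.0222%). Both subline arrays lay above both parent arrays in 26 of the 41 genes, against 15.7% of all genes, and below both in 0, against 18.0%. The 41 genes are not independent, and they also shifted jointly between duplicates of 1 group. Replicate 1 was lower in 35 of them in the Detroit parent (median -0.65) and in 36 in the OECM1 subline (-0.56). It was higher in 35 in the OECM1 parent (0.36), while the medians of the Fadu duplicates were 0.14 (subline) and -0.10 (parent). In these genes the root mean square difference between duplicates was 0.366 in the Fadu subline (0.424 over all genes tested). It was 0.496 in the Fadu parent (0.485) and 3.12 in the Detroit-labelled subline (0.891), and the fit pooled the spread of all groups. Fitted without Detroit-labelled replicate 2, AURKA, NEK2, TTK, NDC80 and KIF23 had an unadjusted p under 0.05 (2.68% of all genes). There 0 of the 41 genes passed (0.0222% of all genes). The spindle group was positive in 8 of 8 genes, up to 1.08 (DLGAP5), and the cytokinesis group in 6 of 6, from 0.07 (PRC1) to 1.03 (KIF23).

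In the OECM1 comparison, 29 genes were lower and 12 higher on average in the subline, the median log2 fold change was -0.19, and 0 passed, as for all genes tested (0%). CENPE (-0.89, SE 0.306, adjusted p = 0.979, limma), TTK (-0.86, SE 0.665, adjusted p = 1.00) and CKAP2 (-0.78, SE 0.661, adjusted p = 1.00) were furthest below 0 and CKS2 (0.58, SE 0.927) furthest above it. CENPE was the only one with an unadjusted p under 0.05 (3.34% of all genes). Both subline arrays lay below both parent arrays in CDK1, CCNB2, CENPE, CENPF, NUSAP1 and BIRC5 (6 genes, 11.6% of all genes) and above both in AURKB and CDC20 (2 genes, 13.5%). The spindle group was negative in 8 of 8 genes and the mitotic kinases positive in 4 of 4, by 0.05 to 0.12. The median turned to 0.09 without OECM1 subline replicate 1, the array in which DLGAP5 read 6.10, and to 0.017 without OECM1 parent replicate 1.

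**Figure D3:**
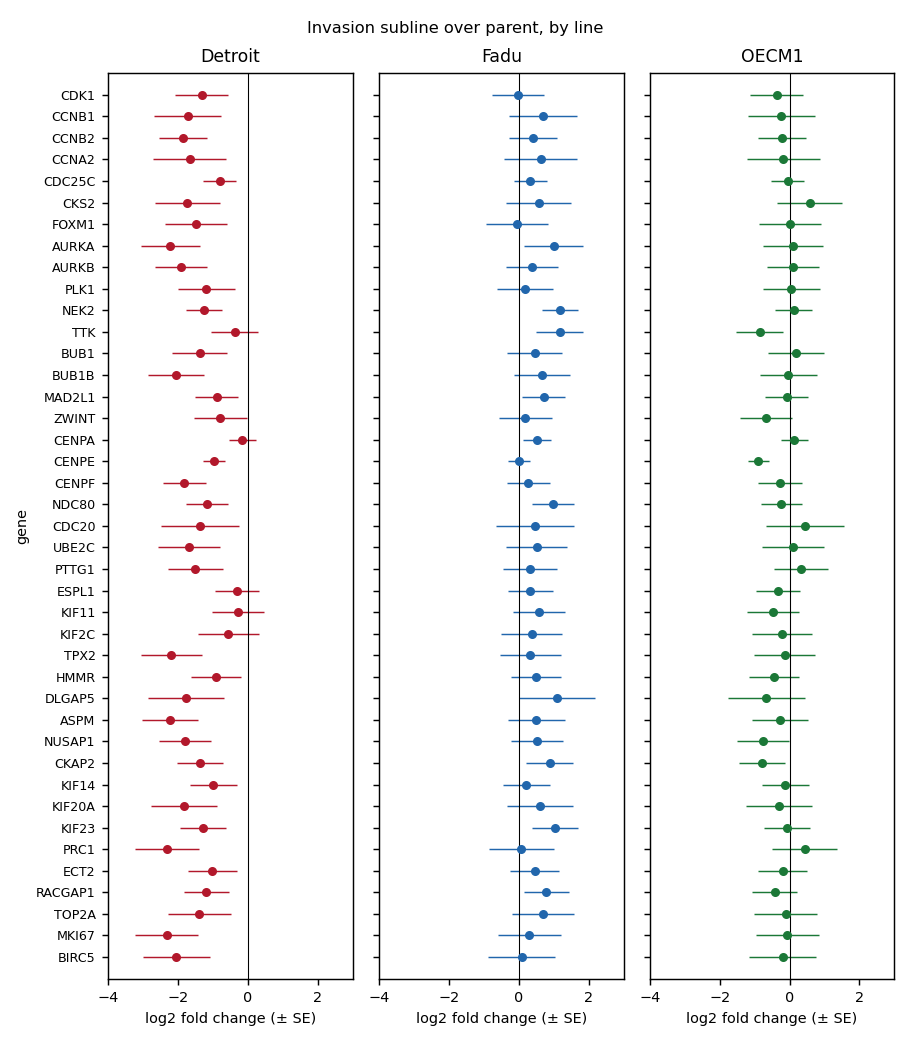
Log2 fold change of invasion subline over parent (x axis, with the SE of the limma fit as bars) for each of the 41 genes (y axis) in the Detroit, Fadu and OECM1 comparisons, n = 2 arrays per group. All 41 points lie below 0 in Detroit, 39 lie above 0 in Fadu and 29 lie below 0 in OECM1, and 0 of them passed at an adjusted p under 0.05.

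Averaged over the 3 line pairs, with the lines as replicates, the median log2 fold change was -0.36 and 0 of the 41 genes passed, as for all genes (0%), with CENPE alone at an unadjusted p under 0.05 (4.30% of all genes). Without Detroit-labelled replicate 2 the median was 0.17. A test of whether the 3 effects differed between lines passed in 0 of the 41 genes, against 63 genes of the whole array (0.701%), and NEK2 alone had an unadjusted p under 0.05 (8.67% of all genes). The outcome of that test depended on which Detroit-labelled array was left out, and such fits rest on a lone array in that group. The opposite signs of Detroit and Fadu are thus not shown to differ beyond the spread of the duplicates.

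Between the parents, CENPE and MAD2L1 differed with the line. CENPE was higher in the OECM1 parent than in the Fadu parent, at 6.33 ± 0.153 against 4.49 ± 0.261 (SD, n = 2; limma log2 fold change 1.85, SE 0.306, adjusted p = 0.00840). The Fadu parent mean lay below the dim limit, with arrays at 4.30 and 4.67, so no fold is given against it. CENPE was also 2.92-fold lower in the Detroit parent than in the OECM1 parent (-1.55, SE 0.306, adjusted p = 0.0194). That fold is limited too, since Detroit parent replicate 2 read 4.50, just below the dim limit, and replicate 1 read 5.07. MAD2L1 was 6.48-fold lower in the Detroit than in the OECM1 parent, at 6.43 ± 1.03 against 9.13 ± 0.251 (-2.70, SE 0.618, adjusted p = 0.0392). These were 1 of the 41 genes for OECM1 against Fadu (2.94% of all genes passed), 2 for Detroit against OECM1 (3.40%) and 0 for Detroit against Fadu (2.58%), where 0 of the 41 genes also had an unadjusted p under 0.05 (14.7% of all genes). The comparisons share parent arrays, so the CENPE differences are not independent of each other. CENPF (1.98, SE 0.618, adjusted p = 0.132) and MAD2L1 (1.85, SE 0.618, adjusted p = 0.163) did not pass for OECM1 against Fadu, and both passed, with CENPE, when either Detroit-labelled array was left out (4.75% of all genes without replicate 1 and 4.74% without replicate 2).

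The calls between parents rested on few arrays. The CENPE difference between OECM1 and Fadu missed the threshold without Fadu parent replicate 1 (adjusted p = 0.113) and when OECM1 parent replicate 1 was left out (adjusted p = 0.0565). Its difference between Detroit and OECM1 missed it without Detroit parent replicate 2 (adjusted p = 0.144) and likewise when OECM1 parent replicate 1 was left out (adjusted p = 0.114). MAD2L1 was no longer called without Detroit parent replicate 1 (-1.97, adjusted p = 0.231), without either OECM1 parent array (adjusted p = 0.195 and 0.0742), and without any 1 array of the Fadu groups or the OECM1 subline (adjusted p from 0.0626 to 0.0667). Both Detroit against OECM1 calls were also lost with a replicate block (adjusted p = 0.0820 for CENPE and 0.144 for MAD2L1) and with array weights (adjusted p = 0.0731 and 0.0576), and that of CENPE with only the 4 arrays of the comparison (adjusted p = 0.0578). All alternatives kept the direction of these 3 differences.

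**Figure D4:**
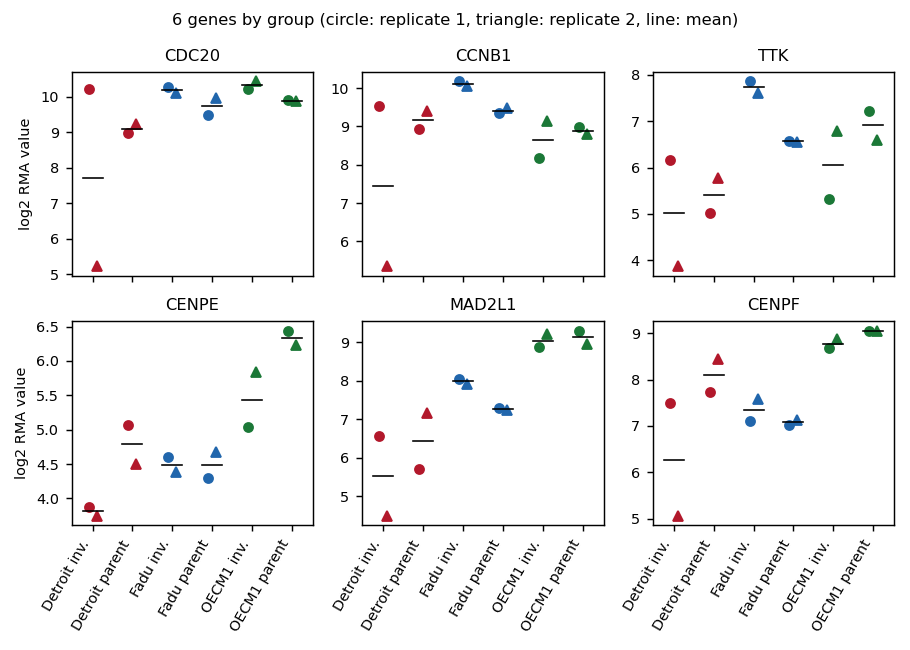
Log2 RMA value (y axis) of CDC20, CCNB1, TTK, CENPE, MAD2L1 and CENPF in the 6 groups (x axis), with circles for replicate 1, triangles for replicate 2 and lines for the mean. CDC20 and CCNB1 show 1 low array, Detroit invasion subline replicate 2, at 5.22 and 5.35, whereas MAD2L1 and CENPF are also higher in all 4 OECM1 arrays than in the other 8.

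The spread within groups was wide for these genes. Their median residual SD in the fit was 0.948, against 0.350 over all genes tested, the 98.0th percentile, and the median SE of a log2 fold change was 0.751 against 0.351. CDC20 had the largest residual SD (1.45) and CENPE the smallest (0.318). Without Detroit-labelled replicate 2 the median SE of the Fadu and OECM1 comparisons was 0.393. The few calls among these genes are to be read against that spread.

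How closely the genes moved together also depended on the low array. Over the 12 arrays, a gene's correlation with the mean of the other 40 had a median r of 0.906, from 0.42 (CENPE) upward, and over the 11 arrays without Detroit-labelled replicate 2 the median was 0.531. Over those 11 arrays TTK (0.90), ECT2 (0.88) and RACGAP1 (0.87) followed the others, while MKI67 (-0.08) and CENPF (-0.01) did not. All these points share 6 groups of duplicates and 3 lines. Among the 8951 other genes tested, those most like the mean of the 41 over the 12 arrays were the checkpoint ATPase TRIP13 (r = 0.983), the spindle protein SPAG5 (0.979), the ribonucleotide reductase subunit RRM2 (0.977), CDCA8 of the passenger complex (0.974), the midbody protein CEP55 (0.968) and KNTC1 (0.966), and over 11 arrays their r ran from 0.75 (RRM2, KNTC1) to 0.92 (CDCA8). Those most unlike it were MB (-0.966), FICD (-0.957), VGLL4 (-0.953), SALL2 (-0.949), PGPEP1 (-0.944) and PNRC1 (-0.942). Over the 11 arrays their r was weaker, from -0.888 (PGPEP1) to -0.485 (PNRC1), with MB at -0.628. MB, the myoglobin gene, read 8.05 in Detroit-labelled replicate 2 and 5.02 to 5.95 in the other arrays.

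Other cell cycle genes showed how far the low array reached. Of 44 further G2 and mitosis genes tested, 39 had their lowest value in Detroit-labelled replicate 2, with a median difference between the duplicates of 2.15, and of 43 DNA replication and S phase genes 34 did, with a median of 1.89. Among these genes RRM2 read 9.20 and 4.21 in the duplicates. The core subunits of cohesin and the anaphase-promoting complex, which are needed for mitosis but are not known as strongly periodic transcripts, had a median of 0.18 over 13 genes. They went both ways, from -1.46 for ANAPC13 to 1.52 for ANAPC2, with 2 over 1 and 3 below -1, and 1 gene was lowest and 2 were highest in replicate 2. Medians were 0.50 for 10 G1 cyclins and CDKs, -0.17 for 10 CDK inhibitors, RB family and MuvB genes, -0.22 for 9 p53 targets and 0.26 for 11 housekeeping genes. In 23 unfolded protein and ATF4 response genes the order was reversed, with a median of -1.51 and replicate 2 higher for all 23. Of these, 12 were highest there of the 12 arrays, against 13.11% of all genes tested. Their mean lay 1.626 above the 12-array mean in that array, 1.145 above it in OECM1 subline replicate 1 and 0.54 above it in OECM1 parent replicate 2. The part of these response genes in the low values of the 41 genes was not tested.

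**Figure D5:**
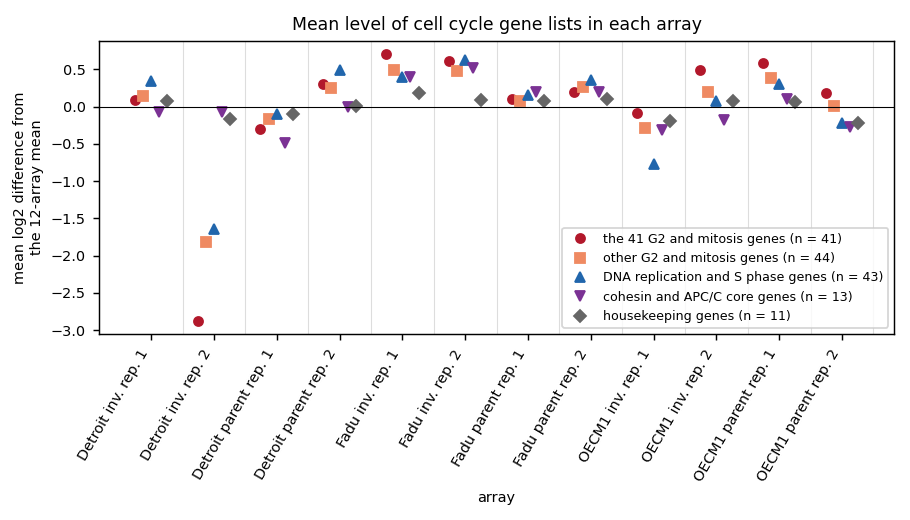
Mean log2 difference from the 12-array mean (y axis) in each array (x axis) for the 41 genes, 44 other G2 and mitosis genes, 43 replication and S phase genes, 13 cohesin and anaphase-promoting complex (APC/C) core genes and 11 housekeeping genes. In Detroit invasion subline replicate 2 the first 3 lists lie at -2.88, -1.82 and -1.65 and the last 2 at -0.07 and -0.17.

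In the Detroit comparison, where 3.28% of all genes passed, 1 of the 44 further G2 and mitosis genes passed, the centromere gene CENPU (log2 fold change -3.57, SE 0.824, adjusted p = 0.0407, limma), with a list median of -0.83. CENPU read 7.83 and 4.53 in the Detroit-labelled subline and 9.49 and 10.01 in the Detroit parent, so both subline arrays were below both parent arrays. In the 4 Fadu arrays it read 8.012 to 8.455. Of the 43 S phase genes 1 passed, POLA2, a subunit of DNA polymerase alpha (-2.45, SE 0.509, adjusted p = 0.0253), and the list median was -0.82. POLA2 read 6.803 and 5.297 in the Detroit-labelled subline, 8.139 and 8.855 in the Detroit parent and 6.376 to 7.044 in the 4 Fadu arrays. Without Detroit-labelled replicate 2 neither passed (CENPU -1.92, adjusted p = 0.0912, and POLA2 -1.69, adjusted p = 0.112), nor did either without Detroit parent replicate 1 or 2, with a replicate block (adjusted p = 0.0850 and 0.0795), or with only the 4 arrays of the comparison (adjusted p = 0.289 and 0.222). CENPU also missed the threshold without any 1 array of the other lines (adjusted p from 0.0551 to 0.0698), with arrays centred on their medians (adjusted p = 0.0531) and with the ACTB covariate (adjusted p = 0.0525), and POLA2 with array weights (adjusted p = 0.0551). PLK2, which is listed with the p53 targets, passed as lower (-1.93, adjusted p = 0.0304) at 5.31 and 5.27 against 7.60 and 6.85, a difference seen in both subline arrays, and missed the threshold without Detroit-labelled replicate 2 (adjusted p = 0.0970), Detroit parent replicate 1 (adjusted p = 0.207) and either Fadu parent array (adjusted p = 0.0520 and 0.0524). It also missed it with only the 4 arrays (adjusted p = 0.141), a replicate block (adjusted p = 0.115) and array weights (adjusted p = 0.105). CRELD2, of the unfolded protein list, passed as higher (2.80, adjusted p = 0.00525), and missed the threshold with only the 4 arrays (adjusted p = 0.161). It read 9.99 and 11.36 in the Detroit-labelled subline and 7.92 and 7.85 in the Detroit parent, and 9.69 to 10.15 in the 4 Fadu arrays. It was also called as lower in the Detroit than in the Fadu parent (-2.04, adjusted p = 0.0312). None of the 10 G1 genes, 10 CDK inhibitor, RB and MuvB genes, 13 cohesin and complex genes or 11 housekeeping genes passed. In the Fadu and OECM1 comparisons 0 genes of these lists passed, and the further G2 and mitosis genes had medians of 0.29 (40 of 44 positive) and -0.26 (10 of 44 positive).

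Of the 41 genes, 14 had further probe sets with their symbol alone, 24 in all. Among these, 15 lay above the dim limit in at least 11 arrays, and 15 of 15 were lowest in Detroit-labelled replicate 2. The Detroit log2 fold change differed by over 1 from that of the chosen probe set in 10 of the 24, of which 5 had at most 1 array above the dim limit (AURKA, BUB1 and CENPF). In the brighter ones of these 10 the size was smaller than in the chosen probe set. CCNA2 had -0.54 against -1.66, BIRC5 had -0.68 against -2.05, and of the 3 further probe sets of MKI67 one had -0.97 and one -0.70 against -2.33. The remaining probe set of MKI67, with 11 arrays above the dim limit, had -2.13. A further probe set of BUB1 had 0.04 against -1.39 and was near the dim limit, with a mean of 4.67. Further probe sets that did not differ by over 1 went both ways. For example, one of CDK1 had -1.855 against -1.327 and that of TOP2A had -0.69 against -1.39. The chosen probe sets of CENPA, FOXM1 and PTTG1 are of a kind that can also bind related transcripts, so their values may hold signal of other genes.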

How the data were processed

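The deposited values are log2 expression values of 22283 probe sets per array. The authors made them with RMA, and the submitters' processing notes also name Partek 7. Per the labels' protocols, Trizol was used to extract the RNA, which carried a biotin label. A genome build and an annotation are not given in the sources used here. There were 0 missing values and 0 unused value columns, and the median of an array was 4.92 to 5.06.

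Symbols came from the platform annotation, with 1 symbol for 19065 probe sets, several for 1043 and none for 2107, beside 68 controls. The identifiers of all 41 genes are in the RefSeq gene table, with 0 symbols changed. A gene was tested where 2 or more arrays exceeded a log2 value of 4.52, the 40th percentile of the table.

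limma 3.58.1 (R 4.3.3) fitted 1 mean per group to the 12 arrays, moderated by empirical Bayes with a trend on intensity. Benjamini-Hochberg adjustment ran over all 8992 genes, and a gene was called under 0.05. The average effect used the means of the 6 groups, blocked by line, and an F test compared the 3 effects. The fits were also run on simulated arrays with independent noise. These held no outlying array and no shared noise between genes, so they do not test how the fits handle either.

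The 41 genes, the role groups and the other lists were chosen with earlier results of these data known. By rule, values in every array are given for called genes, for the genes of largest and smallest difference between the Detroit-labelled duplicates in each role group, and for the 3 largest changes of each invasion comparison. Other lists are represented by up to 4 genes, called ones first. The 6 genes most and least correlated with the mean of the 41, and further probe sets that differed by over 1, are named too.

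Nothing in the labels says that duplicates are separate cultures. P-values then measure the spread between these samples alone, which may be technical. At most 2 values were identical within a pair of duplicates, so the arrays of each pair are distinct. Alternatives varied the arrays fitted, the replicate block, the dim filter, the trend, array weights, median centring, the probe set, an ACTB covariate and single arrays.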

Additional observations from a re-analysis of the deposited data

How the results depend on the processing

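The direction and the calls of the 41 genes were recomputed under 22 alternatives at most, which left out each array in turn or changed the filter, the trend, the weights, the scaling, the probe set or the model. Leaving out single arrays moved the Detroit comparison most: the genes passing ranged from 0 to 35 and the median log2 fold change from -3.03 to 0.14. Against the Fadu parent the Detroit-labelled arrays gave 0 to 34 passing genes and medians of -3.06 to 0.011, and the difference between lines 0 to 21 genes. For Detroit against OECM1 parents the same omissions gave 0 to 2 genes and medians of -0.74 to -0.044, for OECM1 against Fadu parents 0 to 3 genes, and for the Fadu comparison medians of 0.35 to 0.57.

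With only the 4 arrays of a comparison, 1 gene (MAD2L1) passed for Detroit against OECM1 parents (2.28% of all genes) and 3 for OECM1 against Fadu parents (2.36%), where 3 also passed in the fit without both Detroit-labelled arrays (4.74%). Array weights left 0 genes for Detroit against OECM1 parents. These weights came out equal within every pair of duplicates, so they could not down-weight a single array. With the ACTB difference as a covariate the medians were -0.81 for Detroit against OECM1 parents and 0.42 for OECM1 against Fadu parents. The cause of these shifts was not tested. The count of genes passing on the whole array moved as well, from 295 to between 47 and 918 for Detroit, 232 to between 58 and 506 for Detroit against Fadu parents, 264 to between 65 and 452 for OECM1 against Fadu parents, 306 to between 139 and 516 for Detroit against OECM1 parents, 63 to between 29 and 252 for the difference between lines, 2 to between 0 and 5 for Fadu and 0 to at most 6 for OECM1.

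Same-numbered arrays did not deviate together (r = -0.19 in Detroit, -0.38 in Fadu and -0.40 in OECM1), so the numbers were not taken to pair samples. When a replicate block was fitted inside every line, 0 genes passed for Detroit against OECM1 parents, and the calls among the 41 genes in the other comparisons were the same in number. With the pairing crossed, a block chosen after seeing the data, 3 genes passed for Detroit (CKS2, NEK2 and CKAP2; 5.57% of all genes), 3 for OECM1 against Fadu parents (4.90%) and 1 (NEK2) for the difference between lines (0.856%). The block could not be applied to the average, which uses group means. Signal over background limits CENPE and the low values of Detroit-labelled replicate 2.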
